A study of Mus musculus with 2 samples.

Results

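Exonic regions away from transcript starts were the regions of the Etv4 or Etv5 list whose midpoint fell inside an annotated exon and lay more than 2 kb from the start of any annotated transcript. On nuclear chromosomes, 355 of 13630 regions in the Etv4 list met this rule (2.6%, interval 2.34 to 2.89%), as did 170 of 8289 in the Etv5 list (2.05%, interval 1.76 to 2.38%), which makes 525 of the 21933 deposited regions in all. Exons at this distance from starts make up 2.56% of the known bases of the genome. Most lay in 3' untranslated exons or in exons of non-coding transcripts, and the regions named 398 host genes, among them Ccn1, Eng, Ncl, Neat1 and Smoc2. All intervals are exact 95% binomial intervals, and intervals of a difference between shares are Newcombe intervals. The limit that a count of 0 allows is given instead as 3 counts of the total, which is lower than the upper end of an exact interval. Intervals and limits cover counting error only, and neighbouring regions do not count as independent observations although the intervals take them so.

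Both lists came from ChIP-seq of EpRas cells, a mouse mammary gland epithelial line (EpH4) that carries oncogenic H-Ras. The medium contained 4% fetal bovine serum, and fixation followed 1.5 h of TGF-β3 at 1 ng/ml. The Etv4 library used a rabbit polyclonal antibody and the Etv5 library a mouse monoclonal antibody, and both were amplified by 15 cycles of PCR. Each antibody had 1 library, so no difference between the lists could be set against a spread between replicates, and untreated cells and input DNA were not analysed here. The lists hold positions only. Read depth is therefore unknown, and the library sequenced more deeply may simply have given more regions.

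Etv4 and Etv5 belong to the PEA3 group of ETS transcription factors, which recognise DNA with a GGAA core and act downstream of Ras and MAP kinase signalling. ETS proteins often bind beside AP-1, the dimer of Fos and Jun proteins that shares this upstream pathway. Most regulatory DNA lies in promoters, introns and intergenic sequence, but a transcription factor can also bind within exons, and an exon of one transcript can be an intron or a start of another. A region in a host gene does not show which gene it acts on.

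The sequences that carry an ETS or AP-1 letter pattern within 500 bp around the midpoint are shown first. The ETS pattern was CAGGAAGT or CCGGAAGT and the AP-1 pattern TGACTCA or TGAGTCA, both searched on both strands. Every ETS match in an exonic region read CAGGAAGT. Each line below gives 30 bases of GRCm38 around a match from an exonic region that overlapped a region of the other list, in the direction of the pattern, with the ETS match in capitals. The remaining overlapping regions with a match were hosted by Gm12394, 5430419D17Rik, Gm2420 and Sfi1.
Eng, coding exon, chr2:32680267-32680296, plus strand: tcctccctcctCAGGAAGTctacaagacag
Gm19589, non-coding exon, chr1:88556583-88556612, minus strand: cctctgactcaCAGGAAGTtgcagagatac
Smoc2, non-coding exon, chr17:14337784-14337813, minus strand: accaagagaaaCAGGAAGTcatttccctgg
Gm12602, non-coding exon, chr4:89124166-89124195, plus strand: tcttcacagcaCAGGAAGTtagtcagccgg
4930578N18Rik, non-coding exon, chr16:76149749-76149778, minus strand: gtttcatttcaCAGGAAGTcaacatgatga
Rab30, 3' untranslated exon, chr7:92837355-92837384, minus strand: cactgaagaaaCAGGAAGTcattcagcagc
Cplx3, 3' untranslated exon, chr9:57601344-57601373, plus strand: ccccaagtcagCAGGAAGTgggaagatagc
Fndc7, 3' untranslated exon, chr3:108855815-108855844, plus strand: agacccctggcCAGGAAGTattaaagtttg

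ETS matches in Etv4 regions that overlapped no Etv5 region are shown for 2 genes, chosen after their values were seen for the AP-1 match beside that of Eif4b and for the contractile role of Myl12a. Eif4b encodes a factor of translation initiation and Myl12a a light chain of non-muscle myosin.
Eif4b, coding exon, chr15:102091436-102091465, plus strand: acggtcaaggaCAGGAAGTgagtcatcgca
Myl12a, 3' untranslated exon, chr17:70993970-70993999, plus strand: agtttcggtggCAGGAAGTttacatggacg

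ETS and AP-1 matches touched each other in 2 exonic loci. In the Gm19589 exon the AP-1 match began at the base next to the ETS match, with 0 bases between them, in the Etv4 and in the Etv5 region. In the Eif4b exon the matches had 1 base in common. Both patterns were present in 9 Etv4 and 7 Etv5 exonic regions, and elsewhere the nearest pair was 19 to 372 bases apart.

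AP-1 matches were the more frequent ones. The following lines show AP-1 matches in capitals, in non-coding, 3' untranslated and coding exons.
A630001O12Rik, non-coding exon, chr8:126849726-126849755, plus strand: ggagccgacccTGACTCAgagaggaaacaa
A630001O12Rik, non-coding exon, chr8:126849749-126849778, plus strand: gaaacaaaggcTGACTCActcaccctccac
Map3k4, non-coding exon, chr17:12275838-12275867, plus strand: cgtggtgtaccTGACTCAgcctgtaagtca
Mbnl1, non-coding exon, chr3:60617850-60617879, plus strand: tggctgagtaaTGACTCAgtaattgcctgc
Bhlhe40, 3' untranslated exon, chr6:108665669-108665698, plus strand: ggcttgatctgTGAGTCActctccagtttg
H6pd, 3' untranslated exon, chr4:149979895-149979924, plus strand: aggctgggcagTGACTCAccgttattcaga
Itgb3, coding exon, chr11:104641037-104641066, plus strand: gtcctgtctgaTGACTCAagcaacgtcctc

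The exon classes were compared with the bases available to them. Of the Etv4 exonic regions, 141 (39.7%, interval 34.6 to 45%) lay in 3' untranslated exons, 124 (34.9%, 30 to 40.1%) in exons of non-coding transcripts, 82 (23.1%, 18.8 to 27.8%) in coding exons and 8 in 5' untranslated exons. Of the Etv5 exonic regions, 67 (39.4%, 32 to 47.2%) were 3' untranslated, 70 (41.2%, 33.7 to 49%) non-coding, 30 (17.6%, 12.2 to 24.2%) coding and 3 were 5' untranslated. Coding bases make up 31.2% of exonic bases beyond 2 kb, which is above the interval of either list. Non-coding exons make up 28.3%, which is below the interval of either list, and 3' untranslated exons make up 40%, within both intervals. Per megabase of exon, the Etv4 list held 6.48 regions in non-coding, 5.21 in 3' untranslated and 3.88 in coding exons, beside 4.3 per megabase of intron. The Etv5 list held 3.66, 2.47 and 1.42 in the same order, beside 2.71 per megabase of intron. The 5' untranslated exons, with 0.408 Mb in all, held 19.6 Etv4 regions and 7.35 Etv5 regions per megabase, the highest density of the 4 classes but from 8 and 3 regions.

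**Figure D1:**
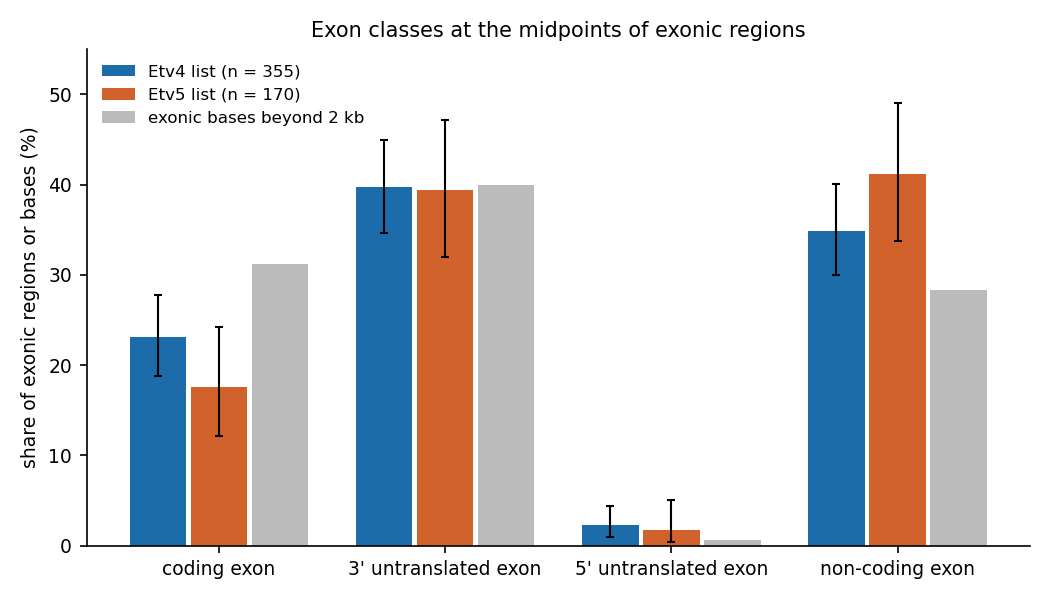
Share of exonic Etv4 regions (blue) and exonic Etv5 regions (orange) in each exon class in percent, with exact 95% intervals as bars, beside the share of all exonic bases more than 2 kb from a transcript start (grey). Coding exons take 23.1% and 17.6% of the regions but 31.2% of the bases, and non-coding exons take 34.9% and 41.2% of the regions but 28.3% of the bases.

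The classes also differed in how much of a region was exon. Coding regions had a median of 57.8% exonic bases for Etv4 and 33.2% for Etv5, since the host exons were short (median 247 and 167 bp). Only 19 of 82 Etv4 and 3 of 30 Etv5 coding regions lay wholly in exon. The 3' untranslated and non-coding classes sat in long exons, with a median of 2683 and 2968 bp for 3' untranslated and 2272 and 2074 bp for non-coding ones. They were wholly exonic in 100 of 141 and 55 of 67, and in 80 of 124 and 38 of 70 regions. In the small 5' untranslated class, 1 of 8 Etv4 and 1 of 3 Etv5 regions were wholly exonic. The last exon of the transcript held 139 of 141 and 67 of 67 of the 3' untranslated regions, and 112 of 124 and 61 of 70 of the non-coding ones. A coding label therefore often describes an exon and its flanking introns together.

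Distances from starts had a median of 5.66 kb for Etv4 (quartiles 3.40 and 10.6 kb) and 6.36 kb for Etv5 (3.74 and 15.7 kb). The midpoints nearest to the limit lay 2008, 2015 and 2035 bp from a start for Etv4 and 2012, 2016 and 2064 bp for Etv5. The exonic midpoints just within it lay at 1951, 1971 and 1982 bp and at 1857, 1860 and 1876 bp. Within 2 kb of a start, 2050 Etv4 and 921 Etv5 midpoints were exonic and are not counted here. Another 299 Etv4 and 153 Etv5 regions beyond 2 kb touched an exon with the midpoint elsewhere. The farthest members were in Trps1 (162.8 kb) and Efna5 (150.3 kb), both Etv4 coding regions.

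By the number given to each region (its criterion is not stated), Ccn1, Hist1h1d, Hist1h2be and Tns3 were among the first coding hosts of the Etv4 list. Ccn1 encodes a secreted matricellular protein, and its region was the second longest exonic Etv4 region (5207 bp, chr3:145645256-145650462). Its midpoint lay 2.12 kb from a start in the last coding exon, but the region covered the whole gene, its start included, and was the 1 exonic Etv4 region whose body spanned a start. In addition, an Etv5 region with its midpoint 1436 bp away, beyond the gene, overlapped it. Tns3, a tensin that links integrins to actin, held a region of 1725 bp that overlapped an Etv5 region.

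Coding exons of the Etv5 list were headed by Sfi1, Myof, Adamts16, Slc39a14 and Lrrc49. The Sfi1 region was 16703 bp long, with 12.5% of its bases exonic, and Sfi1 held another of 2601 bp in its 3' untranslated exon. Myof encodes a membrane repair protein, Adamts16 a secreted metalloprotease and Slc39a14 a zinc and manganese transporter. Their regions of 992, 684 and 582 bp all overlapped an Etv4 region, whereas the Lrrc49 region of 527 bp did not. Wwtr1, which encodes the transcription coactivator Taz, carried coding regions of both lists at the same exon, chr3:57501514-57502206 for Etv4 and chr3:57501609-57502031 for Etv5 (named after its values were seen).

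In 3' untranslated exons, the lowest numbers of the Etv4 list belonged to Lars2, Ccnd1, Nfe2l3, Bhlhe40 and H6pd. Lars2, a mitochondrial leucyl-tRNA synthetase, had number 7 for Etv4 and 20 for Etv5, with nearly the same limits in both (chr9:123461519-123462472 and chr9:123461530-123462469). Of its 36-base sequences, 22.3% and 22.7% occur more than once in the genome. Ccnd1 encodes cyclin D1 of the G1 phase, and Bhlhe40 a transcriptional repressor of the circadian system. Their regions of 1976 and 1300 bp were not matched by an Etv5 region. H6pd, a dehydrogenase of the endoplasmic reticulum, carried regions of both lists, of 1160 and 678 bp. The Etv5 list added Hacd4, an enzyme of very long chain fatty acid synthesis, and Masp1, a protease of the lectin complement pathway, each shared with Etv4.

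Non-coding exons were mostly those of long non-coding RNA genes, with 70 of 124 Etv4 and 39 of 70 Etv5 regions. Non-coding transcripts of protein-coding genes held 40 and 24, among them the retained-intron transcripts of Smoc2, Map3k4, Mbnl1 and Tnnt2, whose exon can be intron in other transcripts of the gene, and pseudogenes and genes awaiting experimental support held the rest. The lowest numbers were A630001O12Rik, Gm19589, 5430403N17Rik, C430002N11Rik and Smoc2 for Etv4, and Gm11413, A630001O12Rik, Map3k4, Tnnt2 and Gm19589 for Etv5. A630001O12Rik carried an Etv4 region of 1742 bp and an Etv5 region of 981 bp over the same exon, with 3 AP-1 matches in each. Map3k4, a kinase of the stress-activated MAP kinase pathway, carried regions of both lists in an exon of 3514 bp with 2 and 3 AP-1 matches. Tnnt2, the cardiac troponin T gene, carried an Etv5 region of 800 bp.

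The 5' untranslated class was small. Its Etv4 regions lay in Sema4d, Desi2, Prr7, Htr1d, Zfp217, Tmbim1, Syne2 and Tspo, and its Etv5 regions in Sema4d, Htr1d and Sf3b5 (named after their values were seen, since they are few). Sema4d, which encodes a semaphorin that signals through plexin B receptors, and Htr1d, a serotonin receptor gene, carried overlapping regions of both lists. The Sema4d regions of 984 and 897 bp each held an AP-1 match, and the Htr1d regions of 409 and 558 bp held none.

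Several host genes carried more than 1 exonic region, and 17 genes carried 3 or more over both lists. Neat1, the scaffold RNA of nuclear paraspeckles, had 5 Etv4 regions and none of Etv5. Its largest, chr19:5838901-5844294, measured 5394 bp, and the other 4 measured 300 to 372 bp. Ncl, which encodes nucleolin, a protein of ribosome biogenesis, had 4 Etv4 regions of 303 to 700 bp in 1 long annotated last exon of 5978 bp, and none of Etv5. Within 3 kb of Neat1 there were 2 Etv5 regions, both near starts, and there were 0 within 3 kb of Ncl.

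Smoc2 and Gm19589 differed from these, since each list had 2 regions in them and the pairs overlapped. Smoc2 encodes a secreted calcium-binding matricellular protein, and its 4 regions lay in 1 exon of a retained-intron transcript, 58.3 to 58.8 kb from the nearest start. Of the other genes with 3 or more regions, 13 had 1 or 2 in each list. They included Mbnl1, a splicing regulator, Ddah1, an enzyme that degrades methylated arginines, Slc9a3, a sodium-proton exchanger, and the long non-coding RNA genes 3110039I08Rik, 5430403N17Rik, D830044D21Rik and F730311O21Rik. The 3 regions in Flg2, which encodes a repeat-rich protein of the skin barrier, lay in sequence that was 100% multicopy.

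**Figure D2:**
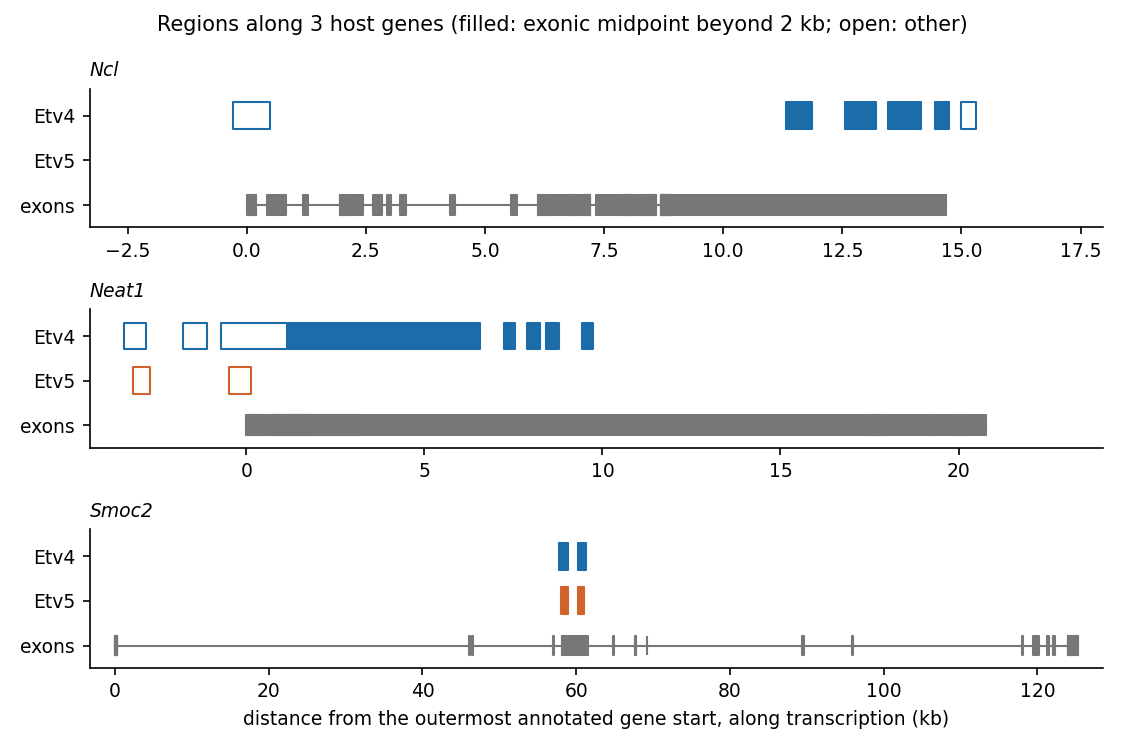
Etv4 regions (blue) and Etv5 regions (orange) along Ncl, Neat1 and Smoc2, in kb from the outermost annotated start in the direction of transcription, with the exons of all transcripts in grey. Filled boxes are exonic regions beyond 2 kb of a start and open boxes are other regions: Neat1 has 5 filled Etv4 boxes and Ncl 4 with no filled Etv5 box, whereas Smoc2 has 2 of each list over 1 exon.

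The next comparison asked how far the exonic regions of both lists coincided. Of the Etv4 exonic regions, 98 of 355 (27.6%, interval 23 to 32.6%) had at least 1 bp in common with an Etv5 region, against 37.8% of all nuclear Etv4 regions. Of the Etv5 exonic regions, 96 of 170 (56.5%, 48.7 to 64%) overlapped an Etv4 region, against 63.1% of all. The shares lay below those of intronic regions by 14.4 percentage points (difference -14.4, interval -19.1 to -9.35) for Etv4 and 11.1 (difference -11.1, interval -18.8 to -3.62) for Etv5. The Etv5 interval included 0 at 5 kb from starts (-16.5 to 2.7), with starts of protein-coding genes only (-9.3 to 2.36) and in the first 50% by region number (-10.3 to 6.32). Regions near starts had shares of 30.2% and 56.4%. The partner midpoint was exonic for 79 of 98 and 78 of 96 overlapping regions, and in an intron for 18 and 15.

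The deficit was uneven between exon classes. In 3' untranslated exons, 29 of 141 Etv4 regions (20.6%) and 29 of 67 Etv5 regions (43.3%) overlapped the other list, which differed from introns by -21.5 points (interval -27.5 to -13.9) and -24.3 points (-35.6 to -12.2). In coding exons, 19 of 82 (23.2%) and 17 of 30 (56.7%) did, with differences of -18.9 (-26.8 to -8.56) and -10.9 points (-28.4 to 5.18). In non-coding exons, 46 of 124 (37.1%) and 48 of 70 (68.6%) did, with differences of -4.96 (-13.1 to 3.94) and 1.02 points (-10.7 to 10.9), so no difference from introns was detectable there. The overlap rose where only the longer 50% of each list was used, to 44.5% of Etv4 and 85.2% of Etv5 exonic regions. Among those regions the difference from introns was -16.6 points (-24.3 to -8.7) for Etv4 and -0.507 (-10 to 5.95) for Etv5.

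**Figure D3:**
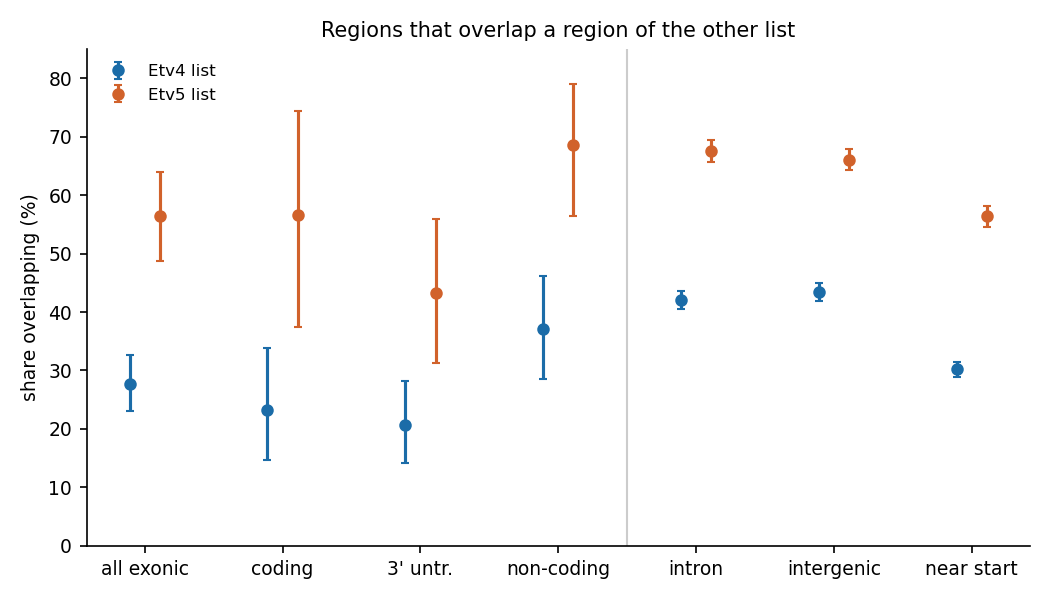
Share of regions, in percent, that overlap a region of the other list by at least 1 bp, for all exonic regions, 3 exon classes and other parts of the genome, with exact 95% intervals as bars (Etv4 blue, Etv5 orange). The 3' untranslated class is lowest, at 20.6% and 43.3%, and the non-coding class, at 37.1% and 68.6%, lies at the level of introns (42.1% and 67.6%).

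At the level of genes, 80 host genes carried an exonic region of both lists, which is 25.5% of the 314 Etv4 host genes and 48.8% of the 164 Etv5 host genes. The same share was not counted for genes with other kinds of region, so these values are not read as high or low. The hosts of the 29 Etv4 regions of 3' untranslated exons that overlapped an Etv5 region included Nfatc2, a calcium-regulated transcription factor, Ncoa3, a nuclear receptor coactivator, and Zyx, a focal adhesion protein (the first 2 named after their values were seen). Eng, which encodes the TGF-β co-receptor endoglin, had an Etv4 region of 866 bp over its exon 13 and an Etv5 region of 426 bp in its 3' untranslated exon. The exonic Etv4 region overlapped an Etv5 region with its midpoint in the intron, and the exonic Etv5 region overlapped none.

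AP-1 sequences were far more frequent in exonic regions than in exons at large. For Etv4, 126 of 355 exonic regions held the pattern (35.5%, interval 30.5 to 40.7%), and for Etv5 70 of 170 did (41.2%, 33.7 to 49%), beside 7.71% of 20000 random exonic windows of the same length. Over all nuclear regions the shares were 37.4% and 35.8%. Etv4 exonic regions carried it less often than intronic ones (49.9%), by a difference of -14.4 points (-19.4 to -9.05). For Etv5 the difference from introns (46.2%) was -5.03 points (-12.4 to 2.72). Regions near starts carried it in 19.6% and 20.9%.

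By class, AP-1 matches were present in 46.8% of non-coding, 32.9% of coding and 26.2% of 3' untranslated Etv4 regions. The same classes of the Etv5 list had 45.7%, 33.3% and 40.3%. Random windows had 8.54%, 7.16% and 7.52%. The median GC content of exonic regions was 49.4% and 48.9% and that of the windows 44%, and its part in the shares was not tested. In coding regions most AP-1 matches lay outside coding sequence: 17 of 31 for Etv4 and 9 of 11 for Etv5 were in introns. In the 3' untranslated and non-coding classes they were mainly exonic. Of the matches of 3' untranslated regions, 46 of 50 and 33 of 34 lay inside 3' untranslated exons. Of those of non-coding regions, 74 of 80 and 45 of 48 lay inside non-coding exons.

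**Figure D4:**
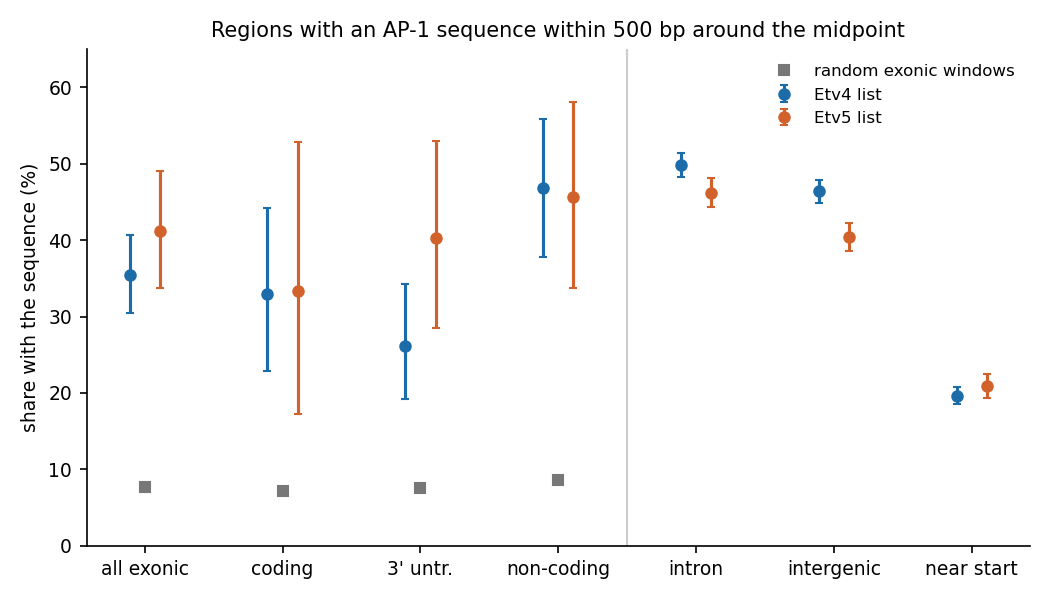
Share of regions, in percent, with an AP-1 sequence within 500 bp around the midpoint, with exact 95% intervals as bars (Etv4 blue, Etv5 orange), beside random exonic windows of the same length (grey squares). The coding, 3' untranslated and non-coding classes, from 26.2% to 46.8%, lie above the random windows of their class, which range from 7.16% to 8.54%.

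AP-1 matches were also counted by whether the lists coincided. Among Etv4 exonic regions, 48% of the 98 that overlapped an Etv5 region carried one, and the difference from the remaining 257 was 17.2 points (5.93 to 28.4). Among Etv5 exonic regions, 46.9% of the 96 overlapping ones did, a difference of 13.1 points (-1.81 to 27) from the remaining 74. By class, 13 of 29 overlapping Etv4 regions and 24 of 112 others carried a match in 3' untranslated exons, 7 of 19 and 20 of 63 in coding exons, and 24 of 46 and 34 of 78 in non-coding exons. In introns, 54.2% of overlapping and 46.7% of other Etv4 regions carried one, and 52.8% and 32.4% for Etv5, so overlapping regions had the higher share there as well.

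ETS sequences were rare by comparison. For Etv4, 24 exonic regions held one (6.76%, interval 4.38 to 9.89%), and for Etv5 14 did (8.24%, 4.58 to 13.4%), beside 4.52% of random exonic windows, 10.2% and 7.93% of all nuclear regions, and 8.17% and 6.65% of intronic ones. The reversed letters TGAAGGAC or TGAAGGCC, a control of the same composition, were present in 3.38% and 3.53% of exonic regions and 4.96% of random windows. Near starts, 8.03% of Etv4 and 5.22% of Etv5 regions held the form CCGGAAGT, which was found in 0 of 355 and 0 of 170 exonic regions. A count of 0 allows a share of up to 0.845% and 1.76%, and random exonic windows had 0.63%, so its absence from exonic regions is not distinguishable from exons at large. The RUNX pattern, TGTGGTT or TGTGGTC, was present in 27.9% and 27.6% of exonic regions and 17.7% of random windows. All nuclear regions had it in 24.7% and 23.9% and intronic ones in 29.6% and 28.2%, so the exonic shares were near those of other regions. A CTCF pattern was present in 2.54% and 1.76% of exonic regions, beside 1.94% and 1.87% of all nuclear regions and 1.86% of random windows.

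The starts of the host genes were examined next. A region of the same list lay within 2 kb of a start of the protein-coding host gene for 142 of 285 Etv4 exonic regions (49.8%, interval 43.9 to 55.8%), against 38% of intronic Etv4 regions (difference 11.8 points, 5.85 to 17.8) and 17.9% of all protein-coding genes. For Etv5 it was 21 of 133 (15.8%, 10 to 23.1%), against 26.1% of intronic regions (difference -10.3 points, -15.9 to -2.94) and 10.6% of all protein-coding genes. The exonic and intronic shares count regions, so a gene with several regions counts more than once. The shares of all protein-coding genes count each gene once and are not a like measure.

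The Etv4 difference from introns was 12.8 points (4.97 to 20.7) among regions beyond 5 kb of a start and 6.2 points (-1.93 to 14.3) in host genes of at most 50 kb. The Etv5 difference was -9.01 (-15.8 to 0.702) and -18.9 points (-25.9 to -8.29) in the same subsets. In the longer 50% of each list the difference was 12 points (3.24 to 20.6) for Etv4 and -7.64 (-16.5 to 4.72) for Etv5, so the Etv5 interval included 0 there and beyond 5 kb. Etv4 exonic regions that overlapped no Etv5 region had such a start region in 115 of 214 cases (53.7%) and those that did in 27 of 71 (38%). In introns the same shares were 38.9% and 36.7%. Etv4 exonic regions whose host gene had a start region overlapped the Etv5 list in 19% of cases and the others in 30.8%, a difference of -11.8 points (-21.5 to -1.7). The Etv5 values ran the other way. Start regions were found for 13 of 69 overlapping (18.8%) and 8 of 64 other (12.5%) exonic Etv5 regions, and for 29.4% and 19.5% of intronic ones. Exonic Etv5 regions with a start region in the host overlapped the Etv4 list in 61.9% of cases and the others in 50%, a difference of 11.9 points (-11 to 31.5), and in introns the difference was 11.4 points (6.92 to 15.5).

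**Figure D5:**
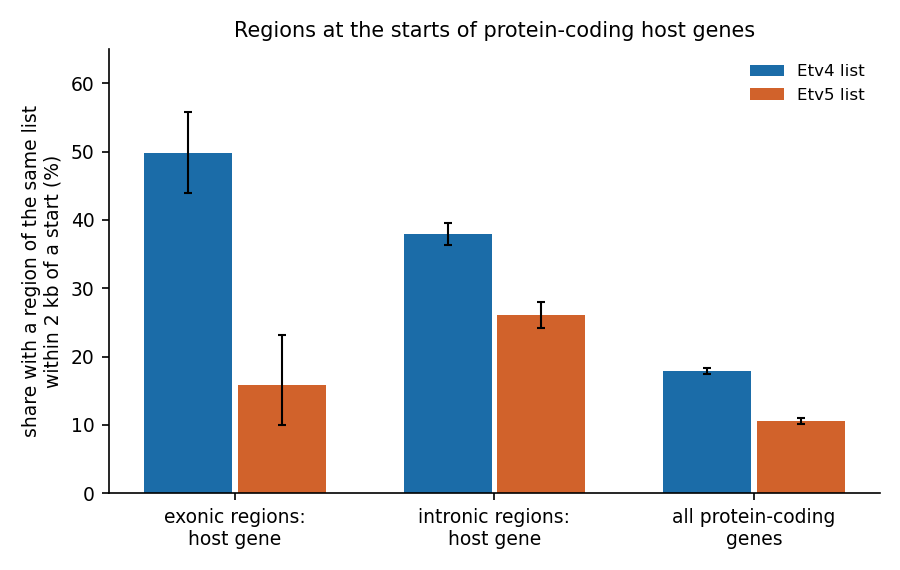
Share, in percent, of exonic and of intronic regions whose protein-coding host gene has a region of the same list within 2 kb of a start. Beside them is the share of all protein-coding genes with such a region, each gene counted once (Etv4 blue, Etv5 orange, exact 95% intervals as bars). For Etv4 the exonic share of 49.8% is above the intronic one of 38%, and for Etv5 the exonic share of 15.8% is below the intronic one of 26.1%.

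Gene lists related to Ras and TGF-β signalling were counted for exonic regions. Of the 18680 protein-coding genes with exonic bases beyond 2 kb of a start, 1.31% carried an exonic Etv4 region and 0.642% an exonic Etv5 region. Of 43 actin cytoskeleton genes with such bases, 8 carried one for Etv4 (18.6%, interval 8.39 to 33.4%) and 0 for Etv5, which allows up to 6.98%. They were Myh9, Pdlim7, Tln2, Tns3 and Zyx of contractile fibres and focal adhesions, Myl12a, Svil and Synpo. The Etv4 regions in Tns3 and Zyx overlapped an Etv5 region, which the count for Etv5 leaves out. The median gene of the list has 4.34 kb of such exon, beside 2.29 kb for all protein-coding genes. Per megabase of exon the actin genes held 44.3 Etv4 regions and the non-coding RNA list 41.1, beside 5.24 over all exons. The TGF-β and Smad list held 28.7 and the matrix and integrin list 20.5. These densities rest on 10, 6, 5 and 6 regions in that order. Of the 6 regions of the non-coding RNA list, 5 lay in Neat1. Over all lists together 23 of 375 genes (6.13%) carried an exonic Etv4 region and 6 (1.6%) an exonic Etv5 region. The lists were chosen with earlier results of these data known, and the 375 include the 16 genes of the non-coding RNA list. No excess over the share of protein-coding genes is therefore read from these totals.

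Of 41 genes of the TGF-β and Smad pathway, 4 carried an Etv4 region (9.76%, 2.72 to 23.1%). They included Eng, Pmepa1 and Smad7, the last 2 of which encode inhibitors of the pathway and were marked in their 3' untranslated exons by regions of 393 and 529 bp. Of 56 extracellular matrix and integrin genes, 5 carried one in the Etv4 list (8.93%, 2.96 to 19.6%), among them the basement membrane genes Lama3 and Hspg2, the microfibril gene Fbn1 and the membrane metalloprotease gene Mmp24. The Etv5 list had 2 of them (3.57%), Lama5 and the integrin gene Itgb3. Hspg2 and Lama3 were shared with Etv5, and Itgb3 with Etv4, by overlap with a region.

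The remaining lists held at most 2 genes each. For Etv4 they were Hmga2, Tjp1, Krt7, Runx1, Neat1 and Jpx, and for Etv5 Erf, Kdm2a and Trrap. Erf encodes an ETS repressor controlled by ERK, and its coding exon held an Etv5 region of 319 bp, chr7:25245998-25246316. No exonic region of either list lay in 45 genes of the ERK pathway and its feedback, nor in 19 AP-1 genes, which allows shares of up to 6.67% and 15.8%. Both limits lie above the shares of all protein-coding genes (1.31% for Etv4 and 0.642% for Etv5), so the absence is not distinguishable from genes at large.

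Repeated sequence accounted for few members. Mostly multicopy regions, those in which over 50% of 36-base sequences occur more than once in the genome, numbered 16 Etv4 (4.51%) and 5 Etv5 (2.94%), beside 5.88% of random exonic windows and 5.78% and 9.43% of all nuclear regions. The 5 with the lowest numbers lay in Flg2 (2 regions), 9030025P20Rik, Gm43305 and Gm3435 for Etv4, and the Etv5 ones in Flg2, Hist1h2be, Gm10552, 9030025P20Rik and Gm12394. Reads in such sequence can come from another copy, so the named host is uncertain for them.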

How the data were processed

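ChIP-seq regions of the Etv4 and the Etv5 library were used. The authors called them per library with the one-sample mode of CisGenome, which takes no input. Per the labels, Bowtie and mm10 were used. The deposited files are BED lists, in which the score column holds 1000 throughout and carries no information. The region number in the name column has no stated criterion. Counts of reads are not part of them, so the depth per library is unknown.

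Sequence was GRCm38 (the assembly mm10 names) and annotation GENCODE M21 with all transcripts. Midpoints were classed in the order coding, 3' untranslated, 5' untranslated, non-coding. Host genes with a start region were counted over protein-coding genes that contain the midpoint. Patterns were searched in 500 bp around midpoints, and the background was 20000 random exonic windows outside all regions and beyond 2 kb. The CTCF pattern was a fixed 12-letter consensus. Shares have exact (Clopper-Pearson) 95% intervals and differences Newcombe intervals. There was no test between antibodies.

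Members and gene lists were chosen with earlier results of these data known. Named genes were the hosts of the 5 lowest numbers per list and class without mostly multicopy regions, overlapping regions with an ETS match, genes with 3 or more exonic regions, listed genes, and the 5 lowest numbers of mostly multicopy regions per list. Results on some of these genes are not reported here. On simulated data, 1000 of 1000 midpoints, 500 of 500 overlaps and 400 of 400 sites were recovered. Intervals were computed with scipy 1.17.1, tables with pandas 2.3.3 and numpy 2.4.6, 36-base sequences with numba 0.67.0 and figures with matplotlib 3.10.9, under Python 3.11.15.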

Additional observations from a re-analysis of the deposited data

How the results depend on the processing

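Of 140 values recomputed under alternatives, 45 moved outside the main interval (counts, by over 1.5 times) and 95 did not. Requiring 5 kb from a start left 201 Etv4 and 100 Etv5 exonic regions, with 33.8% of the Etv4 ones overlapping. Counting starts of protein-coding genes only gave 596 and 280 regions, with coding, 3' untranslated and non-coding shares of 15.3%, 25.8% and 57.6% for Etv4 and 11.4%, 26.1% and 61.4% for Etv5, and 64.6% of Etv5 regions overlapping. The longer 50% of each list held 164 and 81 exonic regions, with overlaps of 44.5% and 85.2% and a non-coding Etv5 share of 51.9%. The first 50% by region number held 161 and 80, with overlaps of 44.7% and 83.8%, AP-1 in 42.2% of Etv4 regions, and Etv5 shares of 28.7% for 3' untranslated and 51.2% for non-coding exons. Requiring at least 50% exonic bases, with the class taken at exonic midpoints, gave coding shares of 15.4% and 7.59% and an Etv4 3' untranslated share of 46.3%. Coding transcripts alone gave 35.5% and 30% coding, 61% and 67% 3' untranslated and 0% non-coding, by construction. An overlap of 50% of both regions left 22.3% and 44.7%. A window of 200 bp left ETS in 3.66% of Etv4 regions and AP-1 in 21.4% and 23.5%, and CCGGAAGT alone was in 0% of both. Where no construction explains a move, the cause was not tested.

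Exonic regions overlapped the other list less often than intronic ones for Etv4, and carried AP-1 less often. Both intervals lay below 0 under each alternative in which introns were counted and that can change both (start distance and kind, multicopy regions left out, 50% subsets). The overlap interval also lay below 0 under the other overlap rules, and the AP-1 interval with the other windows. For Etv5 the differences had the same sign. Its AP-1 interval included 0 as reported and under each of these alternatives that can change it, except protein-coding starts (-7.34 points, -13.2 to -1.24). The Etv5 overlap interval included 0 at 5 kb (-6.53 points, -16.5 to 2.7), with protein-coding starts (-3.29, -9.3 to 2.36) and in the longer 50% (-0.507, -10 to 5.95) and first 50% (-0.492, -10.3 to 6.32). The subsets of host genes were added after seeing the data. No paired analysis was possible because there was only 1 library per antibody and no test between libraries. Regions without read counts set no limit of detection.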

Other observations

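Vomeronasal receptor genes, which are used in the olfactory system, hosted exonic regions in both lists (a family noticed after the values were seen, whose members without a region were not counted, so nothing is read from their number). The Etv4 list held 2 regions in Vmn2r105 and the Etv5 list 1, all in a last exon of 8071 bp, and the larger Etv4 one, of 1051 bp at chr17:20203084-20204134, overlapped the Etv5 one. Of the sequences of that Etv4 region, 1.87% were multicopy. Etv4 regions in Vmn1r61 and Vmn1r58 overlapped an Etv5 region, whereas those in Vmn1r60 and Vmn1r43 did not. In the Etv4 list, 37.2% of the sequences were multicopy in the Vmn1r61 region, 15.5% in Vmn1r58, 37.7% in Vmn1r60 and 0.583% in Vmn1r43. The regions in Vmn1r58, Vmn1r60 and Vmn1r61 held AP-1 matches, one of them within the same 30 bases in all of these genes (ttcatcatactTGAGTCAtttgtttgtttt), so reads there can come from another copy.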
